A study of Mus musculus with 18 samples.

Results

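The 10 genes described here, Atf4, Atf5, Cebpb, Ddit3, Trib3, Chac1, Sesn2, Asns, Psat1 and Phgdh, belong to the integrated stress response and the amino acid response, and were chosen by name out of 19057 genes with a probe of their own on the array. Each was followed through the probe with the highest mean level over all 18 arrays. They were measured in granule neuron progenitors (GNPs), dividing cells of the postnatal cerebellum that can give rise to medulloblastoma (MB) when hedgehog signalling is unrestrained, and in 2 single tumours. GNPs had been purified from postnatal day 6 cerebella of 4 genotypes, with 4 arrays each. These were wild type (WT) and Ptch+/- mice, both labelled C57Bl/6, NdpKO mice on a mixed background, and NdpKO;Ptch+/- compound mutants. The compound mutants mostly carried no strain label. According to the study, compound mutants and littermate controls came from Ndp+/- mothers and Ptch+/- fathers. NdpKO and NdpKO;Ptch+/- mice were therefore all male, while other controls were of either sex. The part of sex in the comparisons was not tested, nor was that of strain. By the labels, strain changed together with Ndp genotype between WT and NdpKO GNPs, so strain and genotype cannot be told apart there. Since the compound mutants mostly lack a strain label, strain cannot be set aside in their comparisons or in the interaction of the genotypes either. Ptch encodes the receptor that restrains hedgehog signalling, and a Ptch+/- mouse inherits 1 intact copy. According to the study, inactivation of that copy marks malignant progression in these mice. Whether either tumour had lost it was not tested. Ndp encodes Norrin, a secreted protein that signals to endothelial cells through Frizzled4, and was disrupted by a lacZ cassette in all cells. One tumour came from a symptomatic Ptch+/- mouse and the other from a symptomatic NdpKO;Ptch+/- mouse, so neither has a replicate.

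When amino acids run short or unfolded proteins build up, kinases phosphorylate the initiation factor eIF2. General translation then slows, while translation of the Atf4 mRNA increases. ATF4 protein pairs with C/EBP proteins such as the product of Cebpb and binds composite elements in target genes, among them Atf5, Ddit3 (CHOP) and Trib3, Chac1, Sesn2, Asns, Psat1 and Phgdh. TRIB3 feeds back on ATF4, CHAC1 degrades glutathione, SESN2 restrains mTORC1, ASNS makes asparagine, and PHGDH and PSAT1 catalyse steps of serine synthesis. Because ATF4 is controlled in large part by translation, its mRNA level is a poor measure of its activity.

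The core of the C/EBP-ATF composite element, TGATGNAA on either strand, was searched in promoter windows from RefSeq (GRCm38.p6), which run from 250 bases before to 50 bases after a transcript start. All 10 genes had a window, and a match lay in those of Asns, Chac1 and Trib3. Of all 32851 windows, 3.97% held one. The sequences are shown because 2 of these genes, Chac1 and Trib3, varied most among the GNP arrays, and Asns and Chac1 differed most between the tumours. Each is read along the strand of its gene, with the match in capitals. The match begins 23 bases upstream of the start in Asns, 193 bases upstream in Chac1 and 14 bases downstream in Trib3.
Asns, chr6:7693214-7693243, minus strand: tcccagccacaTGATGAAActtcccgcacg
Chac1, chr2:119351038-119351067, plus strand: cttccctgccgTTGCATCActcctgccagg
Trib3, chr2:152344028-152344057, minus strand: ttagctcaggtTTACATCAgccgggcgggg
The cyclic AMP response element TGACGTCA, which lay in 1.79% of windows, was found in none of the windows of the 10 genes. A match is a stretch of letters and no evidence of binding.

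Levels are log2 values as deposited, and every array had the same median of 4.13. A level below 5 lies near the background of the scale. The probe for Ndp read between 4.10 and 4.13 on all 18 arrays, WT included, and so checks no label. Ptch1 ranged from 8.56 to 8.70 in WT, from 7.63 to 7.94 in Ptch+/-, from 8.65 to 8.97 in NdpKO and from 7.80 to 8.23 in NdpKO;Ptch+/- GNPs. For NdpKO;Ptch+/- replicate 2 the labels disagree, since the title names the compound mutant and the source and genotype fields name the Ndp knockout. It was grouped by its title, and its Ptch1 level was 7.80. Of the 9 measured GNP markers, Atoh1 and Pax6 lay below 5 on every GNP array, whereas the other 7 were measured. A pair of GNP arrays stood apart from their genotype. On the first principal component of the 1500 most variable probes, computed without any gene listed in this account and holding 43.0% of their variance, NdpKO replicate 4 scored -15.0 against 14.1 to 19.3 in the other NdpKO arrays. NdpKO;Ptch+/- replicate 1 scored 16.2 against -19.6 to -8.61 in the other compound mutants. All 4 WT arrays scored between -22.6 and -14.0 and all 4 Ptch+/- arrays between 12.7 and 17.4. Which BeadChip or preparation day an array belonged to is not given in the sources used here.

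The plot of all levels by array shows the 10 genes side by side. Among the 16 GNP arrays Chac1 and Trib3 varied most, and Psat1 and Phgdh least.

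**Figure D1:**
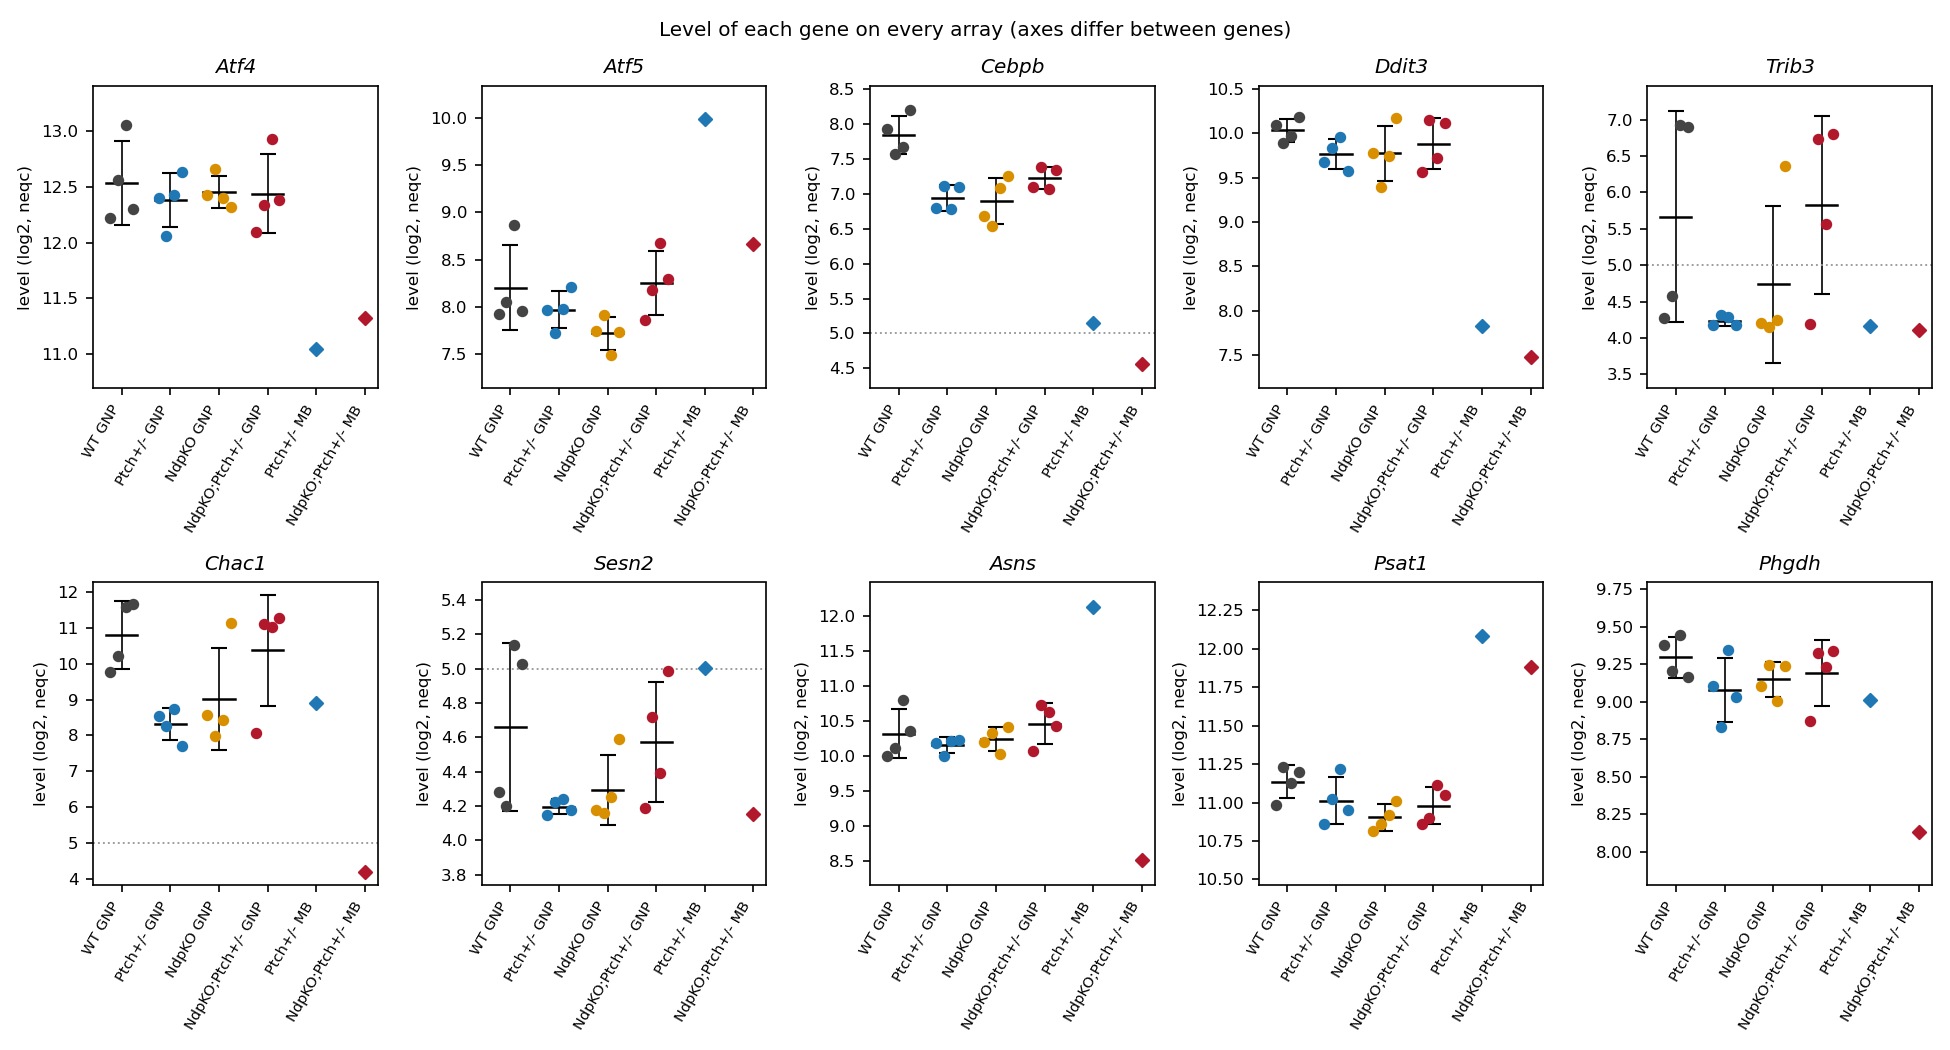
Level (log2, background-corrected and quantile-normalised) of each gene on every array, with 1 point per array in order of replicate number, black bars for the mean ± SD of 4 arrays, diamonds for the single tumours and a dotted line at 5. WT arrays of Cebpb lie between 7.58 and 8.19, above every array of the other genotypes, and Chac1 runs from 7.72 to 11.7 among GNPs and down to 4.19 in the NdpKO;Ptch+/- tumour.

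Cebpb, the C/EBP partner of ATF4, was the gene of the set that differed between genotypes. It was measured at 7.93, 7.58, 7.67 and 8.19 in WT GNPs. In Ptch+/- GNPs the levels were 6.79, 7.10, 6.78 and 7.10. In NdpKO GNPs they were 6.69, 6.54, 7.08 and 7.25, and in NdpKO;Ptch+/- GNPs 7.10, 7.38, 7.07 and 7.34. Every WT array lay above every mutant array, and the 3 mutant genotypes overlapped one another. Cebpb fell by 0.90 ± 0.17 (log2 difference ± SE, limma, n = 4 per genotype) in Ptch+/- against WT GNPs, a 1.86-fold lower level (adjusted p = 0.030). In NdpKO against WT it differed by -0.95 ± 0.17, a 1.93-fold lower level (adjusted p = 0.045). These 2 comparisons share the WT arrays, and by the labels NdpKO and WT GNPs also differed in strain. In NdpKO;Ptch+/- against WT GNPs Cebpb differed by -0.62 ± 0.17 and was not called (adjusted p = 0.37). Loss of Ndp went with a difference of 0.28 ± 0.17 in the Ptch+/- background (adjusted p = 0.70), and the interaction, the difference with Ndp loss in Ptch+/- minus that in Ptch+/+ GNPs, was 1.23 ± 0.24 (limma adjusted p = 0.048). Against NdpKO the compound mutants differed by 0.33 ± 0.17 (adjusted p = 0.87). By the moderated F test over the 4 genotypes Cebpb had an adjusted p of 0.075.

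The calls of Cebpb were close to the threshold. The call in Ptch+/- against WT was lost on omission of WT replicate 1, 3 or 4 or of any 1 Ptch+/- array (adjusted p = 0.054 to 0.093). The other 2 calls held on omission of NdpKO replicate 4 or NdpKO;Ptch+/- replicate 1 and were lost on omission of any other array. Without the array of disagreeing labels, the adjusted p of NdpKO against WT was 0.061 and that of the interaction 0.11, with differences of -0.95 and 1.18. With that array counted as NdpKO, the adjusted p was 0.051 for Ptch+/- against WT, 0.099 for NdpKO against WT and 0.18 for the interaction. With the pair of arrays that stood apart left out, all 3 calls of Cebpb held (adjusted p = 0.014, 0.013 and 0.0075). That pair was chosen after the data were seen. Its omission also raised the share of all probes called, to 3.10%, 2.36% and 5.69% from 1.09%, 0.307% and 0.495%.

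Several marker lists and some heat shock genes were also lower in Ptch+/- and NdpKO than in WT GNPs. Over 12 endothelial markers the median difference was -0.79 in Ptch+/- and -0.78 in NdpKO against WT, with 11 lower in each and none called. In the same order it was -0.68 and -0.64 for astrocyte and Bergmann glia markers and -0.13 and -0.15 for microglia and leukocyte markers. For the 9 GNP markers it was 0.19 and 0.16. The mean log2 level over 13 astrocyte and Bergmann glia markers ran from 8.21 to 8.63 in WT and from 7.22 to 8.15 in the 12 mutant arrays, and 3 of these markers (Fabp7, S100b and Glul) lay below 5 on all GNP arrays. The mean over 12 immediate-early and dissociation genes ran from 8.37 to 8.87 in WT, from 8.06 to 8.18 in Ptch+/-, from 7.76 to 7.97 in NdpKO and from 7.85 to 7.94 in NdpKO;Ptch+/- GNPs. Sox9 differed by -0.55 ± 0.12 in Ptch+/- and Gfap by -2.16 ± 0.41 in NdpKO against WT (adjusted p = 0.048 and 0.0499). On the list of immediate-early and dissociation genes Hspa1b and Hspb1 differed by -2.16 and -2.78 in Ptch+/- against WT, and Hspa1a by -3.14 in NdpKO against WT (adjusted p = 0.035, 0.030 and 0.013). The list did not move as a whole, since 5 of its 12 genes were higher and 7 lower than WT in each of Ptch+/- and NdpKO, and Jun and Egr1 differed by 0.54 and 0.44 in Ptch+/- without being called. The mean over 14 microglia and leukocyte markers ran from 5.04 to 5.53 in WT and from 4.59 to 5.06 in mutant arrays, and 9 of them, namely Aif1, Cx3cr1, Csf1r, C1qa, Tyrobp, P2ry12, Ctss, Ptprc and Itgam, lay below 5 on every GNP array. The part of these levels in the Cebpb result was not tested. In bulk RNA, fewer cells of a type and less RNA per cell cannot be told apart.

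Atf4, the central factor of the pathway, was measured at 12.53 ± 0.38 in WT GNPs, and the means were 12.38 ± 0.24 for Ptch+/-, 12.45 ± 0.14 for NdpKO and 12.44 ± 0.35 for the compound mutants (SD, n = 4). On this probe the arrays overlapped in all genotypes, and 4.38% of its variance over the 16 arrays lay between genotypes (moderated F, adjusted p = 0.98). Its second probe ranged from 9.64 to 10.4 among GNPs and had an adjusted p of 0.74 by the same test. On that probe WT arrays (10.06 to 10.25) lay above Ptch+/- arrays (9.77 to 9.99) without overlap, with a difference of -0.28 ± 0.15 (limma adjusted p = 0.476). Ddit3, the stress-induced factor CHOP, was measured at 10.03 ± 0.13, 9.76 ± 0.17, 9.77 ± 0.31 and 9.88 ± 0.29 in the same order (SD, n = 4) and had an adjusted p of 0.82 by the moderated F test. Atf5, a factor of the same family, was measured at 7.92, 8.05, 8.87 and 7.95 in WT GNPs. In NdpKO GNPs it was 7.75, 7.92, 7.49 and 7.73, and in NdpKO;Ptch+/- GNPs 7.86, 8.18, 8.67 and 8.29. The 4 Ptch+/- arrays, at 7.97, 7.73, 7.97 and 8.21, overlapped all other groups. NdpKO arrays of Atf5 lay just below those of WT without overlap, but the difference of -0.48 ± 0.21 was not called (limma adjusted p = 0.44). The compound mutants differed from NdpKO by 0.53 ± 0.21 (adjusted p = 0.87) and from Ptch+/- by 0.28 ± 0.21 (adjusted p = 0.78), and the interaction of 0.77 ± 0.30 was not called either (adjusted p = 0.28).

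Chac1, the glutathione-degrading enzyme, had the widest spread of the 10 genes. It was measured at 9.78, 10.21, 11.57 and 11.67 in WT GNPs and at 8.54, 8.25, 8.74 and 7.72 in Ptch+/- GNPs. In NdpKO GNPs the levels were 8.56, 7.98, 8.44 and 11.12. In NdpKO;Ptch+/- GNPs they were 8.07, 11.12, 11.02 and 11.29. No array lay between 8.74 and 9.78, so that the 16 levels fell into an upper and a lower set of 8. All WT and no Ptch+/- arrays were in the upper set, and the other genotypes held arrays of both. The upper set was the same 8 arrays that had negative scores on the first principal component, NdpKO replicate 4 and NdpKO;Ptch+/- replicates 2 to 4 included. The pooled SD within genotypes was 1.17, against a median of 0.211 over the 10804 probes with a GNP mean of at least 5, and 11 of those probes, Chac1 included, had an SD as large.

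By genotype, Chac1 was not called in any comparison. Ptch+/- and WT arrays did not overlap, but the difference of -2.49 ± 0.81 had an adjusted p of 0.17. NdpKO differed from WT by -1.78 ± 0.81 (limma adjusted p = 0.45). The compound mutants differed by 2.06 ± 0.81 from Ptch+/- (adjusted p = 0.49), by 1.35 ± 0.81 from NdpKO (adjusted p = 0.88) and by -0.43 ± 0.81 from WT (adjusted p = 0.97). The interaction was 3.84 ± 1.14 (adjusted p = 0.14). These values rest on the pair of arrays that stood apart. Without them Chac1 differed by -2.49 ± 0.41 in Ptch+/- and by -2.48 ± 0.44 in NdpKO against WT, and by 2.83 ± 0.44 in NdpKO;Ptch+/- against Ptch+/- and by 2.82 ± 0.47 against NdpKO (adjusted p = 0.010, 0.018, 0.0089 and 0.017). The interaction was then 5.31 ± 0.62 (adjusted p = 0.000844), and the difference between the compound mutants and WT turned to 0.34 ± 0.44. The pair was chosen after the data were seen and Chac1 follows the same split, so their omission had to narrow its spread. Without them 3.10%, 2.36%, 2.04% and 1.45% of all probes were called in those 4 comparisons, and 5.69% for the interaction.

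**Figure D2:**
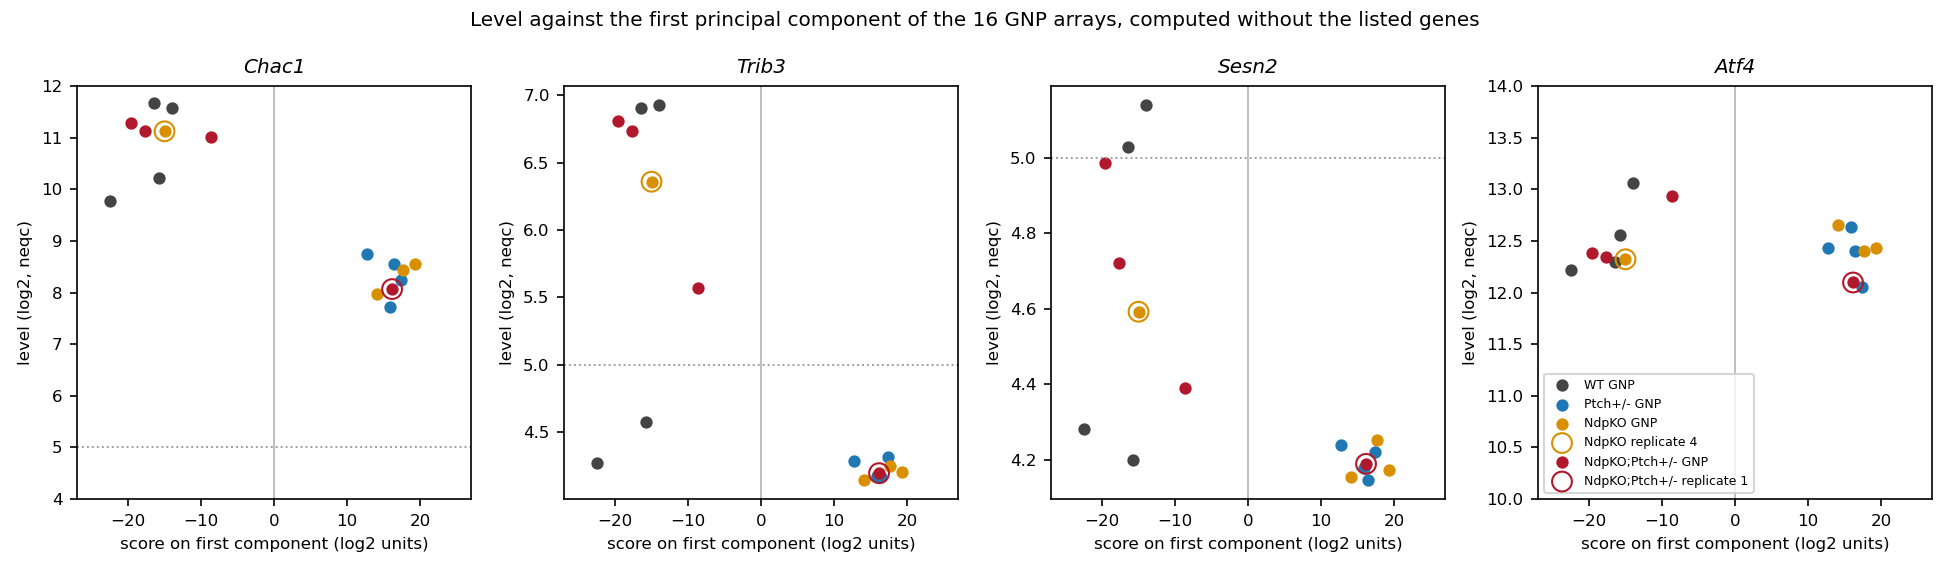
Level (log2) of Chac1, Trib3, Sesn2 and Atf4 against the score of each of the 16 GNP arrays on the first principal component (log2 units, sign set so that WT is negative), with rings round NdpKO replicate 4 and NdpKO;Ptch+/- replicate 1 and a dotted line at 5. Chac1 lies at 9.78 or more on the 8 arrays with negative scores and at 8.74 or less on the rest, while Atf4 has no such step.

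Trib3, the pseudokinase that feeds back on ATF4, was near background on many arrays. It was measured at 4.27, 4.57, 6.93 and 6.90 in WT and at 4.17 to 4.31 in Ptch+/- GNPs. NdpKO replicates 1 to 3 had levels of 4.14 to 4.25 and replicate 4 had 6.36. In the compound mutants the levels were 4.20, 6.73, 5.57 and 6.81. Trib3 therefore exceeded 5 on 6 arrays, all of them in the upper set of Chac1, whereas WT replicates 1 and 2 had high Chac1 and Trib3 near background. Its differences were -1.43 ± 0.75 in Ptch+/- and -0.93 ± 0.75 in NdpKO against WT, and 1.59 ± 0.75 and 1.09 ± 0.75 in the compound mutants against Ptch+/- and NdpKO. None was called (limma adjusted p = 0.463, 0.735, 0.589 and 0.885), and the interaction of 2.52 ± 1.06 had an adjusted p of 0.32. With the pair of arrays left out the interaction of Trib3 was 3.60 ± 0.89 (adjusted p = 0.040). The other 2 probes of Trib3 lay between 4.10 and 4.17 on all arrays and carried no information. Its pooled SD of 1.09 was matched or exceeded by 21 of the 10804 probes, of which Trib3 is one.

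Sesn2, a restraint on mTORC1, exceeded 5 on WT replicates 3 and 4 alone among GNPs, with WT levels of 4.28, 4.20, 5.14 and 5.03. It ranged from 4.15 to 4.24 in Ptch+/-, from 4.16 to 4.59 in NdpKO and from 4.19 to 4.98 in NdpKO;Ptch+/- GNPs. All mutant arrays were thus near background, where levels have no order. No comparison was called, with differences of -0.47 ± 0.22 in Ptch+/- and -0.37 ± 0.22 in NdpKO against WT (limma adjusted p = 0.39 and 0.60). The compound mutants differed by 0.38 ± 0.22 from Ptch+/- and by 0.28 ± 0.22 from NdpKO (adjusted p = 0.685 and 0.903), and the interaction was 0.74 ± 0.31 (adjusted p = 0.315).

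The biosynthetic enzymes varied less. Asns was measured at 9.99, 10.11, 10.79 and 10.35 in WT GNPs and at 10.07, 10.72, 10.62 and 10.42 in NdpKO;Ptch+/- GNPs. Ptch+/- arrays lay between 9.99 and 10.23 and NdpKO arrays between 10.03 and 10.41, so all groups overlapped (moderated F, adjusted p = 0.82). The second Asns probe reached 8.69 in WT replicate 3, and among NdpKO arrays its highest value, 8.66, was again in replicate 4. The third Asns probe lay at or below 4.26 in all GNPs. Psat1 was measured at 11.14 ± 0.11, 11.01 ± 0.15, 10.90 ± 0.09 and 10.98 ± 0.12 in WT, Ptch+/-, NdpKO and NdpKO;Ptch+/- GNPs (SD, n = 4). Its pooled SD of 0.119 was the smallest of the 10, and it differed by -0.23 ± 0.08 in NdpKO against WT without being called (limma adjusted p = 0.29). Phgdh was measured at 9.30 ± 0.14, 9.08 ± 0.21, 9.15 ± 0.12 and 9.19 ± 0.22 in the same order (SD, n = 4), with overlap of all groups (moderated F, adjusted p = 0.82).

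For most of the set the 2 arrays that stood apart held the highest or the lowest level of their genotype, but some margins were small. NdpKO replicate 4 had 10.41 for Asns against 10.32 in replicate 2. NdpKO;Ptch+/- replicate 1 had 10.859 for Psat1 against 10.896 in replicate 2. NdpKO replicate 4 had the highest NdpKO level of 7 of the 10 genes, the exceptions being Atf4, Atf5 and Phgdh, although Sesn2 was near background on all NdpKO arrays. Among probes with a GNP mean of at least 5 it was the highest of its group for 29.8%. NdpKO;Ptch+/- replicate 1 had the lowest level of its group for 9 of the 10 genes, Cebpb being the exception and Sesn2 again near background, and it was the lowest for 30.0% of those probes. The mean level over 12 endothelial markers was 7.77 in NdpKO replicate 4 against 6.63 to 7.14 in the other NdpKO arrays, and 6.83 in NdpKO;Ptch+/- replicate 1 against 7.54 to 8.27 in the other compound mutants. It ran from 7.45 to 8.78 in WT and from 6.65 to 7.50 in Ptch+/- GNPs, and 1 of the 12 markers, Kdr, lay below 5 on all GNP arrays. Astrocyte and Bergmann glia markers had a mean of 8.09 in NdpKO replicate 4 against 7.22 to 7.63 in the other NdpKO arrays, but 7.89 in NdpKO;Ptch+/- replicate 1 lay within the 7.83 to 8.15 of its group. The mean of immediate-early and dissociation genes did not set these arrays apart, with 7.93 in NdpKO replicate 4 within a group range of 7.76 to 7.97, and 7.93 in NdpKO;Ptch+/- replicate 1 within 7.85 to 7.94. The part of the cell type markers in the levels of Chac1 and Trib3 was not tested.

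Counted over the 10 genes, 1 (Cebpb, lower) was called in Ptch+/- against WT GNPs, where 1.09% of all 45281 probes were called and 0.499% were called lower. The median difference of the 10 was -0.25, with all 10 below 0, while 46.4% of the probes at or above level 5 were lower and their median was 0.03. Here and in the counts that follow, the 10 were not filtered by level. They include Trib3 and Sesn2, which were near background on most GNP arrays, where levels have no order. Cebpb and Chac1 had groups that did not overlap, as had 9.28% of all probes. In NdpKO against WT 1 of 10 (Cebpb, lower) was called, against 0.307% of probes called and 0.155% called lower. All 10 were below 0 with a median of -0.31, against 46.8% of probes at or above level 5, and Atf5 and Cebpb did not overlap, as did 5.47% of all probes. These directions share the WT arrays.

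In NdpKO;Ptch+/- against Ptch+/- GNPs none of the 10 was called by limma, with 1 at an unadjusted p below 0.05, and 0.0155% of all probes were called. The median was 0.28, with 9 of 10 above 0, while 53.7% of the probes at or above level 5 were below 0 and their median was -0.02. No gene had groups without overlap, against 4.95% of probes. Endothelial markers had a median of 0.61 in this comparison (11 of 12 above 0) and astrocyte and Bergmann glia markers 0.24 (12 of 13). The medians were 0.0002 for microglia and leukocyte markers (7 of 14), -0.13 for GNP markers (4 of 9) and -0.24 for immediate-early and dissociation genes (1 of 12). Against NdpKO none was called and 1 had an unadjusted p below 0.05, with 0.00442% of probes called. There 9 of 10 were above 0 with a median of 0.25, while 52.3% of the probes at or above level 5 were below 0, and no gene lacked overlap, against 2.56% of probes. Against WT none of the 10 was called in the compound mutants, with 1 at an unadjusted p below 0.05 and 0.0508% of probes called. Cebpb alone did not overlap there, against 3.63% of probes, and the median was -0.10, with 3 of 10 above 0 and 48.7% of the probes at or above level 5 below 0. For the interaction 1 of 10 was called (Cebpb), against 0.495% of probes, and its median was 0.56 with all 10 above 0, which follows from the differences just given. The median interaction over probes at or above level 5 was -0.04. It was 1.465 for endothelial markers (12 of 12 above 0) and 0.99 for astrocyte and Bergmann glia markers (13 of 13). For microglia and leukocyte markers it was 0.12 (12 of 14), for GNP markers -0.18 (4 of 9) and for immediate-early and dissociation genes -0.003 (5 of 12). The direction was thus not particular to the 10 genes. The F test over genotypes called none of the 10, with 2 at an unadjusted p below 0.05, against 0.221% of probes.

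**Figure D3:**
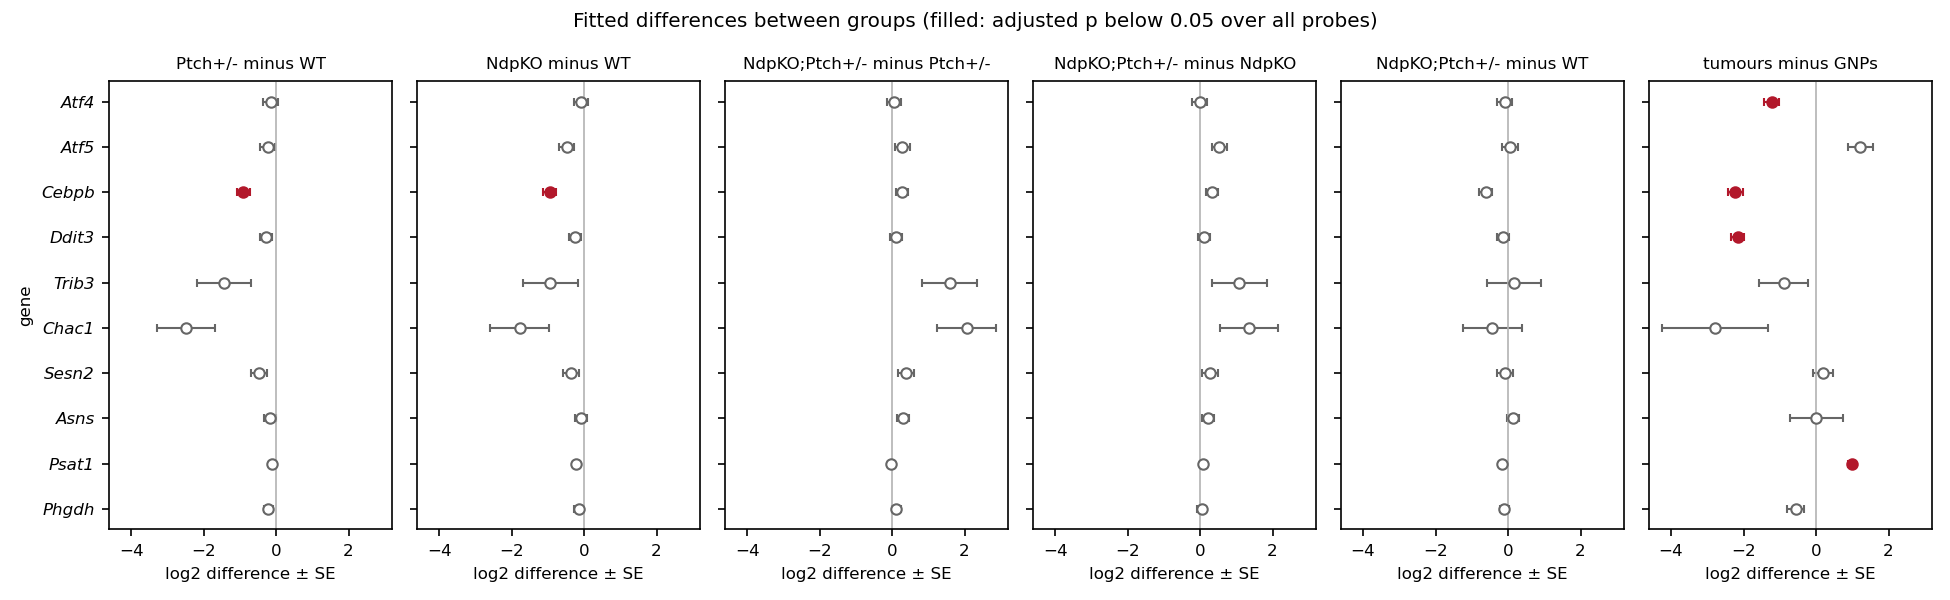
Fitted log2 difference ± SE of each gene in 5 comparisons of GNP genotypes (4 arrays each) and in tumours against the GNPs of their genotypes (2 against 8 arrays), with filled points for an adjusted p below 0.05 over all probes. Cebpb is filled in Ptch+/- and NdpKO against WT, no gene is filled in the comparisons of the compound mutants, and Atf4, Cebpb, Ddit3 and Psat1 are filled in the tumours.

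Among other genes of the pathway few were called in GNPs. Of 8 measured amino acid transporters 1, Slc38a2, a sodium-coupled neutral amino acid transporter, fell in Ptch+/- against WT, by 0.75 ± 0.14 (limma adjusted p = 0.029). The median of the list was -0.34 there, -0.33 in NdpKO against WT and 0.20 in NdpKO;Ptch+/- against Ptch+/-. Of 13 other ATF4 targets and partners 1, Atf3, fell in Ptch+/-, NdpKO and NdpKO;Ptch+/- against WT, with differences of -0.69 ± 0.14, -1.03 ± 0.14 and -1.05 ± 0.14 (adjusted p = 0.035, 0.013 and 0.017). Atf3 is a stress-induced member of the ATF family that is also induced by the handling of cells, and it stands on the list of immediate-early and dissociation genes as well. The medians of these 13 were -0.37, -0.27 and -0.05. Among 19 cytosolic aminoacyl-tRNA synthetases, Cars fell by 1.22 ± 0.25 and Lars rose by 0.40 ± 0.07 in Ptch+/- against WT (adjusted p = 0.040 and 0.029), with a list median of 0.07. Of 10 amino acid and one-carbon enzymes Shmt1 rose by 0.48 ± 0.10 in Ptch+/- against WT (adjusted p = 0.037). No gene of these 4 lists was called for the compound mutants against Ptch+/- or NdpKO. In these comparisons the mitochondrial folate enzyme Mthfd2 differed by 1.02 ± 0.33 and 0.69 ± 0.33 (adjusted p = 0.38 and 0.87).

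None of 11 measured eIF2 kinases, phosphatase subunits and eIF2B subunits was called in a comparison of GNP genotypes. The largest differences among them in Ptch+/- against WT were those of the kinase genes Eif2ak2 (-0.97 ± 0.23) and Eif2ak1 (0.41 ± 0.10), each with a limma adjusted p of 0.068. The kinase genes Eif2ak3 and Eif2ak4 and the phosphatase subunit gene Ppp1r15b had group means of 4.12 to 4.33. Those levels are near background, so their probes gave no information. None of 17 endoplasmic reticulum chaperone and unfolded protein response genes was called either, and their medians lay between -0.0025 and 0.039 in the 5 comparisons. The Hspa5 probe, for the main chaperone of that compartment, had group means of 4.33 to 4.38 and so gave no information. The probes of Canx, Manf, Edem1, Ern1, Atf6 and Hyou1, with means of 4.12 to 4.19 over all 18 arrays, gave none either. The medians of the list include these genes, whose differences the floor keeps near 0. Of 5 genes of the C/EBP family with a probe, Cebpb alone was called in a comparison of GNPs. Cebpa and Cebpe had means of 4.11 and 4.12 over all 18 arrays, near background, and so gave no information.

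The tumours were set against the 8 GNP arrays of their genotypes, which asks what both tumours share against their progenitors. Tumours had been dissected whole, whereas GNPs had been dissociated and purified on a gradient, so tissue and preparation cannot be told apart. Age cannot be told apart from them either, since GNPs were from postnatal day 6 and the tumours from symptomatic mice. No age was assigned to the tumours here. Cebpb was at 5.15 in the Ptch+/- and 4.57 in the NdpKO;Ptch+/- tumour, against 6.78 to 7.38 in the 8 GNP arrays. It differed by -2.22 ± 0.20 and was at least 4.24-fold lower (limma adjusted p = 0.0002). Ddit3 was at 7.83 and 7.48, against 9.56 to 10.14, a difference of -2.17 ± 0.19 and 4.49-fold lower (adjusted p = 0.0002). Its second probe fell by 2.72 ± 0.22 (adjusted p = 0.000105). Atf4 was at 11.04 and 11.33, against 12.06 to 12.93, and differed by -1.22 ± 0.22, 2.34-fold lower (adjusted p = 0.0070), while its second probe fell by 2.01 ± 0.22 (adjusted p = 0.000607). Without the Ptch+/- tumour Atf4 was not called (adjusted p = 0.0833). All 3 factors were thus lower in both tumours than in any GNP array of those genotypes.

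Psat1, the aminotransferase of serine synthesis, went the other way. It was at 12.08 in the Ptch+/- and 11.88 in the NdpKO;Ptch+/- tumour, against 10.86 to 11.21 in GNPs, and rose by 0.98 ± 0.10, 1.98-fold (limma adjusted p = 0.0004). Phgdh, which catalyses the preceding step, differed by -0.56 ± 0.23 (adjusted p = 0.18), with 9.01 and 8.13 in the tumours against 8.83 to 9.34. Atf5 was at 9.99 and 8.67 against 7.73 to 8.67 and differed by 1.22 ± 0.35 (adjusted p = 0.057). Its call depended on the setting, as the adjusted p was 0.011 with a filter on dim probes, 0.041 without NdpKO;Ptch+/- replicate 3 and 0.0043 without the NdpKO;Ptch+/- tumour. Without the Ptch+/- tumour the difference was 0.41 ± 0.29 (adjusted p = 0.537), so that its size rested on that tumour. Of 14 alternatives 6 called it. Trib3 lay at 4.16 and 4.11, near background like the Ptch+/- GNPs, and differed by -0.89 ± 0.68 (adjusted p = 0.51).

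Of the 10 genes 4 were called in tumours against GNPs, 1 higher and 3 lower, against 14.7% of all probes, 8.61% higher and 6.06% lower. For the 4 called, both tumours lay on the same side outside the GNP range, as for 23.1% of probes. Trib3 lay just under that range too, but at the floor of the scale, where levels have no order. The median over the 10 was -0.73, and that over probes at or above level 5 was -0.09. Other stress genes were lower in the tumours too. Ppp1r15a, the inducible subunit of the eIF2 phosphatase, differed by -4.69 ± 0.12, Atf3 by -4.00 ± 0.12 and Calr, a chaperone, by -2.02 ± 0.23 (adjusted p = 1.51e-07, 3.45e-07 and 0.000754). Of the 17 endoplasmic reticulum genes 6 were lower (Dnajb9, Xbp1, Calr, Pdia3, Sdf2l1 and Creld2) and 2 were called higher (Ern1 and Hyou1), but these lay below 5 on all arrays compared and carry no information on direction. Ddit4 and Herpud1 were lower as well, with differences of -0.66 and -0.75. Ppp1r15b was called too, at -0.18, but lay below 5 throughout.

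Genes of biosynthesis were called higher in the tumours, namely Shmt1 (1.47 ± 0.13), Aldh1l2 (1.37 ± 0.26), Aldh18a1 (0.71 ± 0.11) and Bcat1 (0.60 ± 0.16) of 10 enzymes, and Iars and Lars of 19 synthetases (limma adjusted p between 0.000205 and 0.0453). Hars was called as well, but its levels were all below 5. Wars fell by 0.47 ± 0.10. No transporter was called. Immediate-early and dissociation genes moved with Atf4, Ddit3 and Cebpb. Of 12 such genes 9 were lower in the tumours, namely Atf3, Fos, Fosb, Jun, Junb, Egr1, Dusp1, Hspa1a and Hspa1b, the last of them below 5 on all arrays compared. Fos differed by -7.41 ± 0.14, and the mean over the list was 5.30 and 5.29 in the tumours against 7.85 to 8.18 in the 8 GNP arrays. The mean over the 14 microglia and leukocyte markers was 7.44 and 6.96 in the tumours against 4.69 to 5.06, with 11 of 14 called higher, Trem2 (4.03 ± 0.06) and Aif1 (3.69 ± 0.20) among them and Ctss below 5 on all arrays compared. The mean over endothelial markers was 5.73 and 5.82 against 6.65 to 8.27, with 5 of 12 called lower (Cldn5, Esam, Emcn, Slco1c1 and Egfl7). The part of these levels in the tumour results was not tested.

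Chac1, Asns and Sesn2 did not move alike in the 2 tumours, so the fit over both says little of them. Chac1 was at 8.91 in the Ptch+/- tumour, just above the 7.72 to 8.74 of Ptch+/- GNPs, and at 4.19, near background, in the NdpKO;Ptch+/- tumour, against 8.07 to 11.29 in GNPs of that genotype. The Ptch+/- tumour thus had at least 15.0-fold more Chac1 signal than the NdpKO;Ptch+/- tumour. Asns was at 12.12 in the Ptch+/- tumour and 8.51 in the NdpKO;Ptch+/- tumour, a 12.3-fold difference, with all 8 GNP arrays of these genotypes between 9.99 and 10.72. One tumour therefore lay above and the other below every progenitor array. The second Asns probe gave 10.14 and 5.76, and its GNP arrays lay between 8.13 and 8.74. Sesn2 was at 5.004 in the Ptch+/- and 4.15 in the NdpKO;Ptch+/- tumour. Across both tumours Chac1 differed from GNPs by -2.79 ± 1.46, Asns by 0.01 ± 0.73 and Sesn2 by 0.19 ± 0.28 (limma adjusted p = 0.30, 0.996 and 0.771).

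Between the single tumours there is no replicate and no test. Of the 9 genes of the set that reached level 5 in a tumour, Chac1, Asns and Atf5 were lower by 1 or more on the log2 scale in the NdpKO;Ptch+/- tumour, and none was higher by as much. Chac1 was at least 15.0-fold lower, since its level in that tumour was near background, and Asns and Atf5 were 12.3-fold and 2.50-fold lower. Among all 11443 probes at level 5 in a tumour, 13.9% differed by 1 or more and 7.09% were lower by 1 or more. Phgdh differed by -0.88, Sesn2 by -0.85 and Cebpb by -0.59, and the latter 2 were near background in the NdpKO;Ptch+/- tumour. On the probes followed here Atf4, Psat1 and Ddit3 differed least, by 0.28, -0.20 and -0.35. The second probes of Atf4 and Ddit3 differed by -0.41 and -0.61, so the direction for Atf4 depended on the probe. Some related genes were lower in the NdpKO;Ptch+/- tumour as Chac1 and Asns were. Slc7a3, a cationic amino acid transporter, was at 8.30 in the Ptch+/- tumour and 4.24 in the NdpKO;Ptch+/- tumour, and Mthfd2 at 11.65 and 9.48. Nupr1, a stress-induced chromatin protein, was at 8.33 and 5.83, and Eif4ebp1, a translational repressor, at 9.73 and 7.39. By list, 3 of 4 transporters (Slc7a3, Slc6a9 and Slc1a4), 3 of 7 enzymes (Mthfd2, Gpt2 and Aldh1l2) and 2 of 9 other targets (Nupr1 and Eif4ebp1) were lower by 1 or more in the NdpKO;Ptch+/- tumour. Of 16 tRNA synthetases Cars was lower and Tars higher, of 7 measured eIF2 genes Eif2ak2 was higher, and of 10 endoplasmic reticulum genes Sdf2l1 and Pdia4 were lower. The tumours also differed in microglia and leukocyte markers, 3 of 10 of which (Aif1, C1qb and Fcer1g) were lower by 1 or more in the NdpKO;Ptch+/- tumour. Of 9 astrocyte and Bergmann glia markers Aldoc, Slc1a2 and Slc1a3 were lower and Hopx higher. Of 6 endothelial markers Slco1c1 was lower and Emcn higher, and of 7 GNP markers Ptch1 was lower and Neurod1 higher. The part of these markers in the gap between the tumours was not tested.

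**Figure D4:**
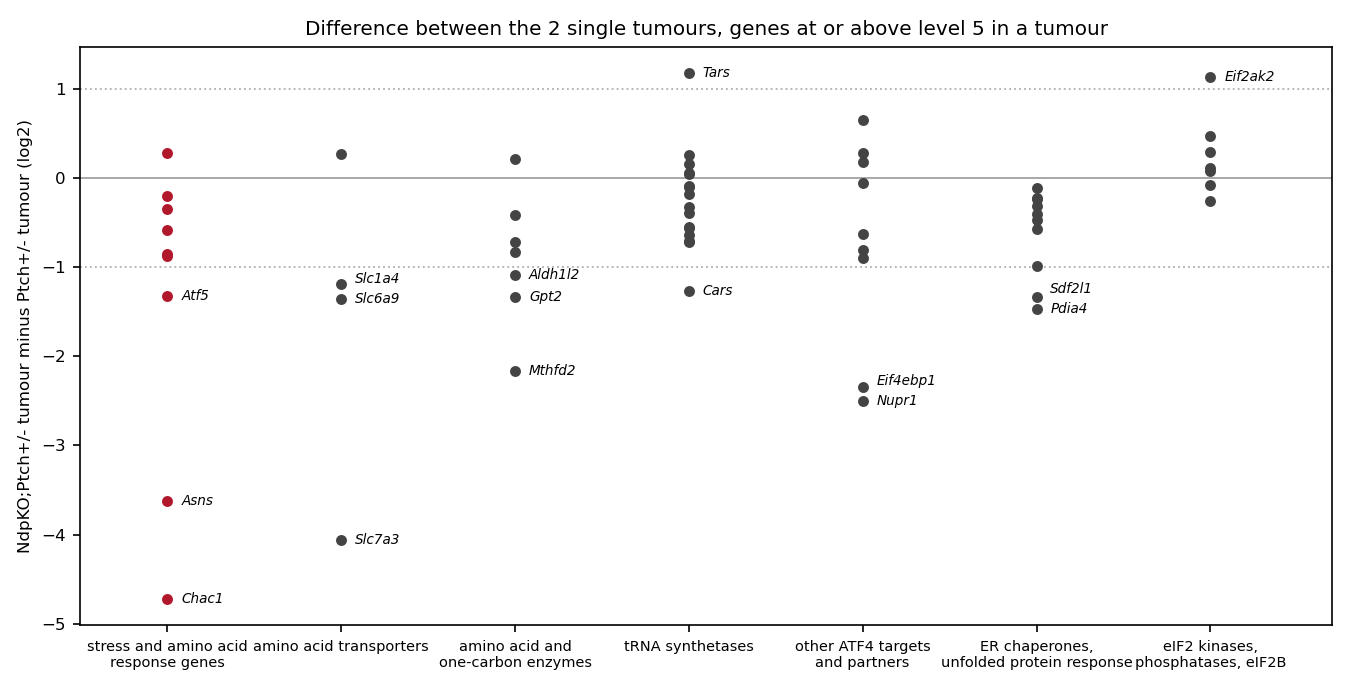
Log2 level in the single NdpKO;Ptch+/- tumour minus that in the single Ptch+/- tumour, with 1 point per gene at or above level 5 in a tumour, grouped by list, dotted lines at 1 and -1 and names for genes past them. Asns lies at -3.62, and Chac1 and Slc7a3, which were near background in the NdpKO;Ptch+/- tumour, lie at measured differences of -4.72 and -4.06 whose order carries no meaning. The eIF2 list has a median of 0.10 and the synthetase list a median of -0.25.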

How the data were processed

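Total RNA of 16 GNP samples and 2 tumours was hybridised to Illumina MouseWG-6 v2 arrays. The deposited values are log2 levels that the authors had background-corrected and quantile-normalised with the neqc function of limma. They were used without further normalisation, and quantile normalisation removes any change that all probes share. Probes that the authors left out for poor annotation were not removed. Of 45281 probes, 34885 had 1 symbol in the platform annotation, 18 several and 10378 none. The 10 genes had 18 probes. Of 160 genes listed, 150 matched by symbol, and Eif2s1, Slc7a5, Mthfd1l, Pycr1, Got1, Dars, Gdf15, Dnajb11, Cd68 and Mki67 were not analysed here.

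The genes, the lists, level 5 and the tests were chosen with earlier results of these data known. All 10 genes were named whatever their values, as were the called genes of the pathway lists, or up to 2 with the largest differences where none was called. Of marker lists, all or examples were named.

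For GNPs, limma 3.58.1 (R 4.3.3) estimated 1 mean for each genotype from the 16 arrays, and variances were moderated by empirical Bayes. Tumours were compared with 8 GNP arrays with genotype as a covariate. Tests were two-sided. Called means an adjusted p below 0.05 after the Benjamini-Hochberg method across the whole table. A fold against a group below level 5 was computed against 5. According to the study the 4 GNP samples per genotype are separate animals. Replicate numbers were not treated as pairs, since same-numbered arrays had a median correlation of -0.044 over 24 pairs after removal of group means. The number of arrays limits the precision. The fits were tested on simulated data. Alternatives covered the arrays in the fit, a filter on dim probes, centring, variance trend, array weights, the disagreeing label, probe averaging, a replicate block and omission of each array.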

Additional observations from a re-analysis of the deposited data

Results flagged for a closer look

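Among 40 groups of 4 GNP arrays (10 genes in 4 genotypes), 3 held an array whose distance from the nearest other array took up more of the range of the group than Dixon's test allows, a limit that chance passes in about 1 of 20 groups. Trib3 in NdpKO replicate 4 was the highest, at 6.36, with 0.953 of the range. Chac1 in NdpKO;Ptch+/- replicate 1 was the lowest, at 8.07, with 0.917 of the range. On the first principal component these same 2 arrays lay away from their genotypes. Atf5 in WT replicate 3 was the highest, at 8.87, with 0.862 of the range, and that array also had the highest WT levels of Atf4, Trib3, Sesn2, Asns and Phgdh.

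The difference of Cebpb with loss of Ndp was not the same in the 2 Ptch backgrounds. The interaction was 1.23 (limma adjusted p = 0.048), from -0.95 in Ptch+/+ to 0.28 in Ptch+/- GNPs. Its adjusted p ran from 0.0075 to 0.18 over 26 alternatives, of which 9 called it.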

How the results depend on the processing

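The counts of called genes among the 10 were small and moved with the setting. Except where given, the share of all probes called in an alternative is not shown here. A change in these counts therefore says nothing particular to the 10 genes. In Ptch+/- against WT GNPs 1 gene was called, 0 with only the 2 groups in the fit or with the array of disagreeing labels as NdpKO, 2 with a filter on dim probes, and 0 to 1 on omission of single arrays. In NdpKO against WT 1 was called, 0 with only the 2 groups, with that array as NdpKO or without it, and 0 to 1 on omission of single arrays. For the interaction 1 was called, 0 with that array as NdpKO or without it, 2 with the filter, and 0 to 2 on omission of single arrays. Over any genotype 0 were called, 1 with the filter, 1 with a variance trend and robust fit, and 0 to 1 on omission of single arrays. In tumours 4 were called, and 7 with all 18 arrays in the fit. With the replicate number as a replicate block, 0 were called in NdpKO against WT and for the interaction (Cebpb, adjusted p = 0.058 and 0.060), and the other counts held. Same-numbered arrays were not paired, and 4 of 16 arrays correlated best with their own number. With NdpKO replicate 4 and NdpKO;Ptch+/- replicate 1 left out, an alternative chosen after seeing the data, the counts were 2 and 2 against WT, 1 each for NdpKO;Ptch+/- against Ptch+/- and NdpKO, 3 for the interaction and 2 over any genotype. Of all probes, 3.10% and 2.36% were then called against WT, 2.04% and 1.45% for NdpKO;Ptch+/- against Ptch+/- and NdpKO, and 5.69% for the interaction. The median of the 10 in NdpKO;Ptch+/- against WT then turned to 0.027 and Chac1 to 0.335. On omission of single arrays that median ran from -0.20 to 0.027 and Chac1 from -0.78 to 0.335, the upper end without NdpKO;Ptch+/- replicate 1. On omission of single arrays or of a tumour, the median in tumours ran from -1.41 to 0.26, Chac1 from -6.18 to 0.59, Sesn2 from -0.42 to 0.81 and Asns from -1.95 to 1.97, with the extremes set by the tumours. The calls of Cebpb, Ddit3 and Psat1 in tumours held in all 14 alternatives and that of Atf4 in 13, the exception being without the Ptch+/- tumour. Centring moved differences by at most 0.04. The cause of these changes was not tested. Where 1 tumour was left out, the other was assumed to vary like the GNPs. Levels near 4 lie at the floor, where Trib3 and Sesn2 have no order.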
